A study of Mus musculus with 2 samples.

Results

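The mitochondrial genome of mouse gastrocnemius, a large calf muscle, was examined through the read counts of its genes in 2 RNA-seq libraries. Members were all genes whose GENCODE M21 symbol starts with mt-, a set of 37 genes with 13 protein-coding genes, 2 rRNAs and 22 tRNAs. The 13 protein-coding genes were analysed, of 34745 genes in all. The 24 rRNA and tRNA genes were not analysed here, so shares of proteins, rRNAs and tRNAs could not be compared. Mitochondrial reads below are those of the 13 genes, and neither they nor the library totals include the 24. All 13 passed the filter on low counts, a mean of 1 CPM (counts scaled to library size) or more.

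Both libraries came from C57BL/6 mice aged 8 weeks. One was labelled Cry2flox/flox (called Cry2flox), where a floxed allele carries recombination sites around part of the gene, and the other Cry2scko. Cry2 encodes cryptochrome 2, a repressor of the circadian clock. The labels neither spell out scko nor name the recombinase, the hour of collection or the number of animals in a library. Gene-assigned reads totalled 18909433 for Cry2flox and 16423884 for Cry2scko, and Cry2 itself had 676 and 133 reads (log2 ratio -2.16). A single library stands for each genotype, so every comparison is of this pair of libraries, with no test between animals. Unless another kind is named, 95% intervals are exact (Clopper-Pearson), converted to ratios where a ratio is given. They all reflect counting error alone, and can be too narrow even for that, since amplified reads without molecular identifiers do not each stand for a separate molecule.

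The mitochondrial genome is a small circle of DNA present in many copies per cell. It encodes subunits of respiratory complexes I, III, IV and V, and the rRNAs and tRNAs that translate them, while all other mitochondrial proteins come from nuclear genes. Each strand is transcribed as a long precursor that is cut around the tRNAs, so most mRNAs of a strand start from one common transcript and their separate levels depend on later processing and decay. Muscle fibres, above all oxidative ones, hold many mitochondria. In bulk tissue, fewer cells or fibres of a type and less RNA per cell cannot be told apart.

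Neighbouring genes on this genome are packed so closely that some share bases, and reads in the shared part can be assigned to either gene. The annotation placed 43 shared bases between mt-Atp8 and mt-Atp6, 7 between mt-Nd4l and mt-Nd4, 1 between mt-Atp6 and mt-Co3, and 14 between mt-Nd5 and mt-Nd6, which lie on opposite strands. The 3 longer overlaps are shown on the plus strand of GRCm38 from the GENCODE M21 transcripts, with the shared bases in capitals and 20 bases on each side. They lie at chrM:7907-7989, chrM:10147-10193 and chrM:13532-13585.
mt-Atp8 and mt-Atp6: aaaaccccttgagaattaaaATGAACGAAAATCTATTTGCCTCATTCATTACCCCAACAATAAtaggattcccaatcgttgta
mt-Nd4l and mt-Nd4: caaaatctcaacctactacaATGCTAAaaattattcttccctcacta
mt-Nd5 and mt-Nd6: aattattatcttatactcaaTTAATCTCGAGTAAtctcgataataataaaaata
In the first 2 windows the capitals open with the ATG of the downstream gene and close with the TAA of the upstream gene.

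Some mitochondrial genes also have near-identical copies in the nuclear genome, and reads of the 2 sources cannot be told apart where the sequences are the same. A BLAST search of annotated transcripts (at least 95% identity over at least 100 bases) found 11 nuclear genes, all annotated as pseudogenes. Of these, 7 lay in one block of chromosome 1 (24611535 to 24616197, minus strand), in the order of the mitochondrial genes. The shortest mitochondrial gene in that block with a copy, mt-Nd4l (chrM:9877-10173), shows how close the match is. Its bases found unbroken in the pseudogene Gm10222 (chromosome 1, 24612407 to 24612700) are in capitals.
mt-Nd4l: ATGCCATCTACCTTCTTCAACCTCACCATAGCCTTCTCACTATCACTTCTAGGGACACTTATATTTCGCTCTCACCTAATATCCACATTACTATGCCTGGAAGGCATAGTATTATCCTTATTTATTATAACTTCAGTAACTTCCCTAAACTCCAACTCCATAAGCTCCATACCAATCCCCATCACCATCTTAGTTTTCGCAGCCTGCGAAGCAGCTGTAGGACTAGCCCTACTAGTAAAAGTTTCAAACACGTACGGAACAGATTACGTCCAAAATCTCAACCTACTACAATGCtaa
All 294 bases of Gm10222 match. The copies of mt-Nd3 (Gm28438) and of the last part of mt-Co1 (Gm29216) differ from the mitochondrial gene at 1 base of the alignment, shown in capitals. The windows are chrM:9459-9491 and chrM:6390-6423 on the plus strand, and chr1:24613087-24613119 and chr1:24616155-24616188 on the minus strand.
mt-Nd3: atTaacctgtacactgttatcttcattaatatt
Gm28438: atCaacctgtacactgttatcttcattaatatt
mt-Co1: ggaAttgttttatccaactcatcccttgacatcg
Gm29216: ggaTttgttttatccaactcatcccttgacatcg
Counted from 1 at the first base of the mitochondrial gene, the differences are T3C in mt-Nd3 and A1066T in mt-Co1.

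The mitochondrial mRNAs were among the most abundant RNAs of the muscle. Together they held 4508193 reads in Cry2flox and 4046982 in Cry2scko, which is 23.8% (23.8 to 23.9) and 24.6% (24.6 to 24.7) of all gene-assigned reads. The share in Cry2scko was 1.03 times that in Cry2flox. In each library 10 of the 20 genes with the most reads were mitochondrial.

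Levels per length were read from the deposited FPKM values (reads scaled to gene length and library total), whose implied gene lengths matched the annotated length within 0.1% for 13 of 13 genes. The order of the 13 levels was the same in both libraries, and Pearson's r of log2 FPKM between them was 0.999 across the 13 genes, which do not replicate each other. Within the 12 genes read from the plus strand, FPKM spanned 8.43-fold in Cry2flox (5386 to 45379, median 19950) and 7.72-fold in Cry2scko (6122 to 47282, median 21290). The gene encoded on the other strand, mt-Nd6, lay below all of them.

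Complex IV, cytochrome c oxidase, which passes electrons to oxygen, took the largest part of the mitochondrial reads. Its 3 genes held 43.6% of them in Cry2flox and 44.2% in Cry2scko. Its catalytic subunit, mt-Co1 (ENSMUSG00000064351, chrM 5328 to 6872), had the highest level per length, at 45379 FPKM in Cry2flox and 47282 FPKM in Cry2scko, with 1325757 and 1199775 reads. The copper-binding subunit mt-Co2 (7013 to 7696) was at 25929 and 26792 FPKM. The structural subunit mt-Co3 (8607 to 9390) was at 20681 and 22326 FPKM. All 3 genes thus had slightly higher values in Cry2scko, with log2 ratios of 0.04 (0.03 to 0.04) for mt-Co1, 0.03 (0.02 to 0.03) for mt-Co2 and 0.09 (0.08 to 0.10) for mt-Co3.

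Complex V, the ATP synthase, is represented by mt-Atp8 and mt-Atp6, subunits of its membrane part. The short gene mt-Atp8 (ENSMUSG00000064356, 7766 to 7969, 204 bases) came next in level per length, at 42781 FPKM in Cry2flox and 44421 FPKM in Cry2scko. Its overlapping neighbour mt-Atp6 (ENSMUSG00000064357, 7927 to 8607) followed, at 28635 and 28367 FPKM. The pair lay on opposite sides of equality, mt-Atp8 with a log2 ratio of 0.03 (0.02 to 0.04) and mt-Atp6 of -0.03 (-0.04 to -0.03). Their log2 ratios differed by -0.07 (Wald interval from the counts, -0.08 to -0.06). The 43 shared bases limit this comparison, since the counting rule for them is not given in the sources used here. Comparing the 2 levels has further limits, because that of mt-Atp8 rests on only 204 bases. The nuclear copy Gm10925 took 16.7% and 17.3% of the FPKM summed with mt-Atp6, while none of the 11 copies found matched mt-Atp8.

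Complex III, which hands electrons to cytochrome c, has a single mitochondrial subunit, cytochrome b. Its gene mt-Cytb (ENSMUSG00000064370, 14145 to 15288) stood between mt-Co2 and mt-Co3 in level, at 22429 FPKM in Cry2flox and 23332 FPKM in Cry2scko, with 485198 and 438390 reads. The log2 ratio was 0.04 (0.03 to 0.04).

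Complex I, NADH dehydrogenase, has 7 mitochondrial subunits that form the core of its membrane arm, and their levels were spread most widely. Together they held 33.7% of the mitochondrial reads in Cry2flox and 33.5% in Cry2scko. Near the start of the plus-strand precursor, mt-Nd1 (2751 to 3707) was at 19218 FPKM in Cry2flox and 20254 in Cry2scko, and mt-Nd2 (3914 to 4951) at 14224 and 15652. Their log2 ratios were 0.06 (0.05 to 0.06) and 0.12 (0.11 to 0.13), so both were slightly higher in Cry2scko. The overlapping pair mt-Nd4l (9877 to 10173) and mt-Nd4 (10167 to 11544) had nearly equal levels, 15967 and 16311 FPKM in Cry2flox and 15752 and 16365 FPKM in Cry2scko. Their log2 ratios were -0.04 (-0.05 to -0.03) and -0.02 (-0.02 to -0.01), and with total-count scaling that of mt-Nd4 changed sign to 0.005. The lowest plus-strand level belonged to mt-Nd3 (ENSMUSG00000064360, 9459 to 9806), at 5386 FPKM in Cry2flox and 6122 FPKM in Cry2scko with 35443 and 34989 reads. It lies between mt-Co3, at 3.84 times its level in Cry2flox, and mt-Nd4l, at 2.96 times. The next lowest was mt-Nd5 (ENSMUSG00000064367, 11742 to 13565), at 9920 and 9494 FPKM.

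The gene mt-Nd6 (ENSMUSG00000064368, 13552 to 14070, minus strand) stood apart in level, strand and base composition. It had 2253 reads or 230 FPKM in Cry2flox and 2459 reads or 288 FPKM in Cry2scko. The plus-strand gene it overlaps, mt-Nd5, was 43.2 times higher per length in Cry2flox and 32.9 times in Cry2scko, and even mt-Nd3 was 23.5 and 21.2 times higher. Its reads were 0.0500% (0.0479 to 0.0521) of the mitochondrial reads in Cry2flox and 0.0608% (0.0584 to 0.0632) in Cry2scko. The coding strand of mt-Nd6 held 28.1% G and 5.97% C, whereas the other 12 genes held 5.88% to 16.1% G and at least 22.1% C. The strand setting of the counting is not given in the sources used here, and without it reads of mt-Nd6 and reads from the opposite strand of the same bases cannot be told apart.

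**Figure D1:**
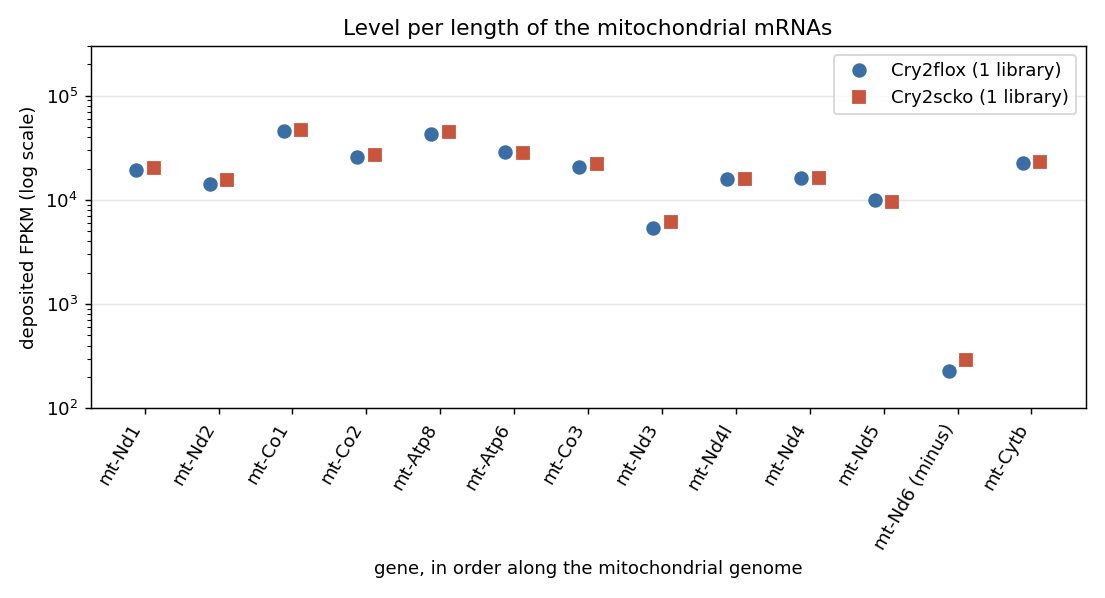
Deposited FPKM (log scale) of the 13 mitochondrial mRNAs in their order along the genome, with 1 point per gene and library (circles Cry2flox, squares Cry2scko). The plus-strand genes lie between 5386 and 47282 FPKM in both libraries, with mt-Nd3 lowest, and mt-Nd6 lies at 230 and 288 FPKM.

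The reading frames themselves differ at both ends. Of the 13 genes, 9 start with ATG, and mt-Nd1 starts with GTG, mt-Nd2 with ATA, mt-Nd3 with ATT and mt-Nd5 with ATC. A complete stop codon closes 10 of them. The other 3, mt-Co3, mt-Nd4 and mt-Cytb, end in a lone T, which the added poly(A) tail is known to complete to a stop codon. Total GC content ran from 31.9% in mt-Atp8 to 41.1% in mt-Nd4l among plus-strand genes. Across those 12 genes, which share a precursor and both libraries, Spearman's rho between GC content and the log2 ratio was -0.17, and between gene length and the log2 ratio -0.07.

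The comparison asked how these mRNAs differ between the Cry2scko and Cry2flox libraries. Of the 13, 0 passed the rule of at least 2-fold with an interval excluding equality, where 4.88% of the 12832 genes tested did. After TMM scaling, which sets the bulk of genes to equal levels, the 13 log2 ratios ran from -0.08 to 0.31 with a median of 0.04. Over all genes tested the quartiles were -0.17 and 0.18, and 12 of the 13 lay within them. These quartiles include genes down to a mean of 1 CPM, whose ratios carry more counting error. The lowest mitochondrial level was 120 CPM, and genes of like depth were not compared. The exception was mt-Nd6, higher in Cry2scko at 0.31 (0.23 to 0.39) and above 83.9% of the genes tested. Because of their depth, all 13 counting intervals excluded equality, 9 above and 4 below, but no replicate shows how much such small differences vary between animals. The split became 10 and 3 with total-count scaling and with totals that leave out mitochondrial and the 20 most abundant nuclear genes. It was also 10 and 3 with the deposited FPKM, which uses the same library totals as total-count scaling and is no separate check. Across 9 alternatives in processing, 46 of 117 ratios of single genes fell outside their main counting interval, so the intervals leave out the choice of scaling. The 117 include other filters and a 1.5-fold threshold, which cannot change a ratio, and 5 reads added, which moved none outside. All 46 came from changed scaling, the deposited FPKM or copies added.

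**Figure D2:**
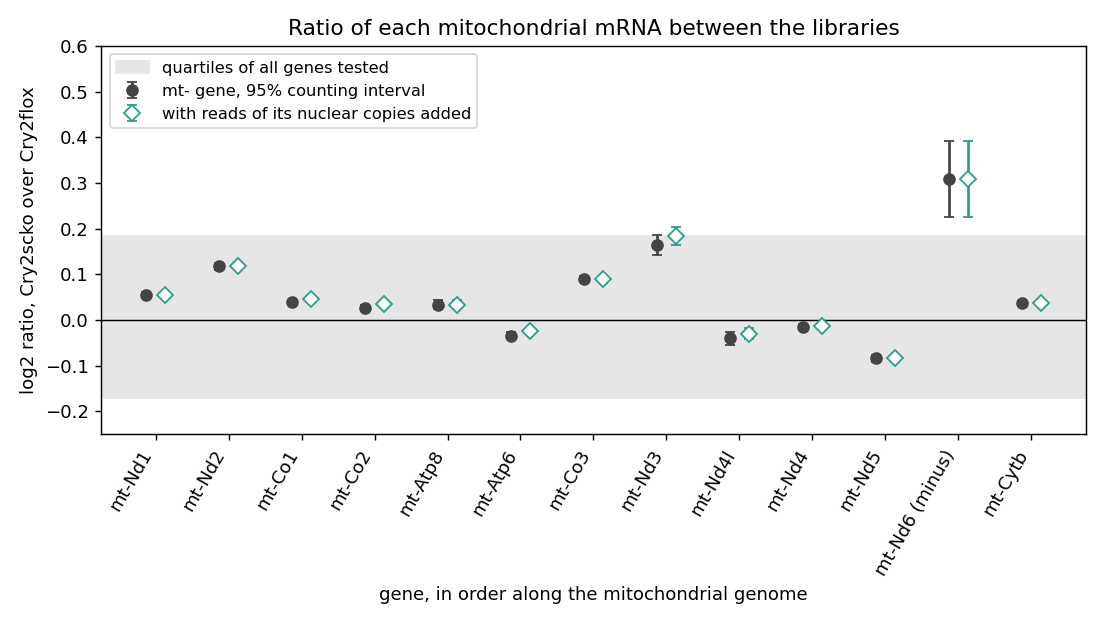
Log2 ratio of Cry2scko over Cry2flox for each mitochondrial mRNA in genome order, with 95% counting intervals, from its own reads (filled circles) and with the reads of its nuclear copies added (open diamonds). The grey band holds the quartiles of all genes tested, -0.17 to 0.18, and mt-Nd6 at 0.31 lies above it.

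Ratios taken within the mitochondrial reads do not depend on the scaling of the libraries. In this composition 7 genes had a larger share in Cry2scko, 4 a smaller one, and the intervals of mt-Co2 and mt-Atp8 held equality. The largest relative gain was that of mt-Nd6, with a log2 ratio of shares of 0.28 (0.20 to 0.36). Next came mt-Nd3, from 0.786% to 0.865% of mitochondrial reads, at 0.14 (0.12 to 0.16), and mt-Nd2, from 6.19% to 6.59%, at 0.09 (0.08 to 0.10). The largest loss was that of mt-Nd5, from 7.59% to 7.03%, at -0.11 (-0.12 to -0.10). In absolute terms that loss, -0.56 percentage points, was also the largest shift of any gene. Smaller shares in Cry2scko were also found for mt-Nd4l (-0.07), mt-Atp6 (-0.06) and mt-Nd4 (-0.04).

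Genes of the same precursor did not keep one ratio. Of the 11 pairs of successive plus-strand genes, 10 had log2 ratios that differed beyond the Wald counting interval, mt-Co2 and mt-Atp8 being the exception. The 10 include mt-Atp8 with mt-Atp6 (-0.07) and mt-Nd4l with mt-Nd4 (0.02), which share 43 and 7 bases. Differences of this size therefore need not lie between separate mRNAs, and what sets them was not tested. The widest step lay between mt-Nd3 and mt-Nd4l, which are 70 bases apart, at -0.20 (-0.23 to -0.18). The ratio rose by 0.12 (0.11 to 0.13) from mt-Atp6 to mt-Co3 and by 0.12 (0.11 to 0.13) from mt-Nd5 to mt-Cytb. There was no steady course along the strand. Spearman's rho between start position and log2 ratio was -0.45 over the 12 genes, with mt-Nd5 low and mt-Cytb, farther downstream, back at 0.04.

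Reads listed under nuclear copies were frequent enough to matter for these levels. The 11 pseudogenes held 327039 reads in Cry2flox and 304550 in Cry2scko, 1.73% and 1.85% of all reads. The block on chromosome 1 held nearly all of them, 314638 and 293016. Its copies follow the mitochondrial order with the same spacing in 5 of 6 places, and the gap between the copies of mt-Nd3 and mt-Nd4l is 74 bases against 73. Over their whole alignment 5 of its 7 copies are identical to the mitochondrial gene, those of mt-Co2 (681 bases), mt-Atp6 (678), mt-Co3 (783), mt-Nd4l (294) and mt-Nd4 (876, its first part).

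Most of the signal per length of each pair was listed under the mitochondrial gene. In Cry2flox the copy's FPKM was 14.8% of the summed FPKM of copy and gene for mt-Co2, 16.7% for mt-Atp6, 15.8% for mt-Co3, 18.8% for mt-Nd4l and 15.6% for mt-Nd4. In Cry2scko the same shares were 15.3%, 17.3%, 15.8%, 19.4% and 15.7%. The 2 copies with 1 differing base had smaller shares, 13.1% and 14.3% for Gm28438 against mt-Nd3, and 10.5% and 11.8% for Gm29216 against mt-Co1. A copy of the whole of mt-Co1 on chromosome 2, Gm13340, differs at 37 of 1545 bases and held 0.888% and 0.902%. The identical copies cannot be assigned to nucleus or mitochondrion by sequence, nor can most bases of the 2 copies with 1 differing base. That base lies at position 3 of mt-Nd3 (345 bases aligned) and 1066 of mt-Co1 (483 aligned, from 1063 on). The treatment of reads with several matches is not given in the sources used here.

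**Figure D3:**
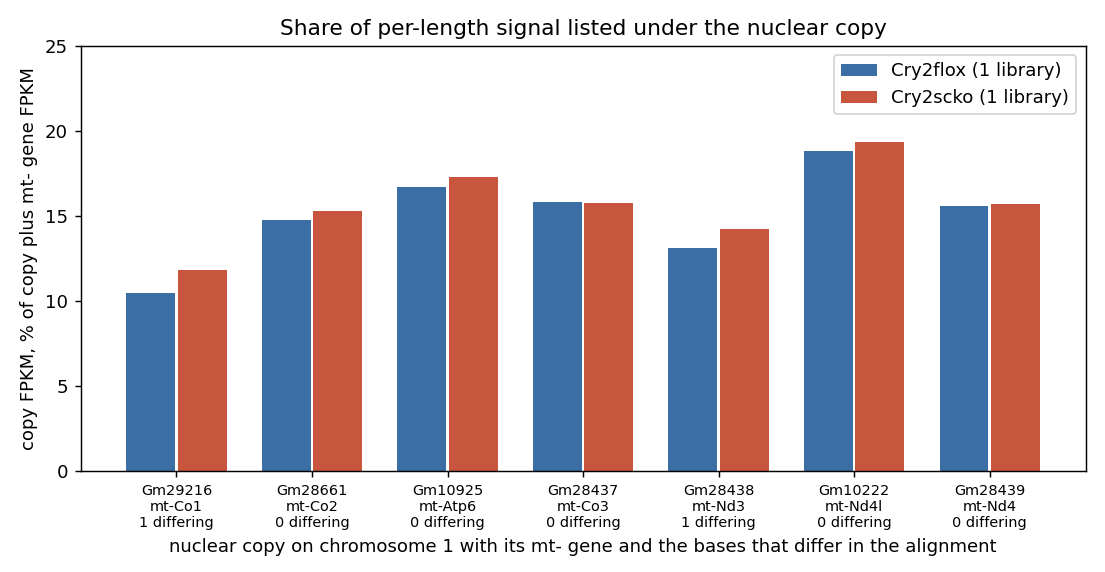
FPKM of each chromosome 1 copy as a percentage of the summed FPKM of the copy and its mitochondrial gene, in the order of the mitochondrial genome (bars, 1 library each, Cry2flox left and Cry2scko right). FPKM shares run from 10.5% to 19.4%, with the 2 copies that differ at 1 base lowest, an order that does not hold for shares of reads.

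The copies had ratios near those of their genes, with 2 wider differences on chromosome 1. The copy of mt-Nd3, Gm28438, had 5304 reads in Cry2flox and 5772 in Cry2scko. Its log2 ratio was 0.31 against 0.16 for the gene, a difference of 0.14 (Wald counting interval 0.08 to 0.20). Gm29216 had 49516 and 51231 reads, a log2 ratio of 0.23 against 0.04 for mt-Co1, a difference of 0.19 (0.18 to 0.21). For the 5 identical copies this difference lay between -0.01 (Gm28437) and 0.06 (Gm28661). The intervals of Gm10222 (0.02 to 0.09), Gm10925 (0.04 to 0.07) and Gm28661 (0.04 to 0.07) excluded 0, and those of Gm28437 and Gm28439 held it. Among the copies off chromosome 1, Gm13339, a copy of part of mt-Nd2 with 381 and 493 reads, differed from it by 0.44 (0.24 to 0.63). Gm13340 (11878 and 10922 reads) and Gm4076, a copy of part of mt-Nd5 (134 and 116 reads), differed from their genes by 0.02 and 0.06, with intervals that held 0. The remaining copy, Gm13341, had 8 and 3 reads. Of the 10 copies with a mean CPM of 1 or more, 0 passed the 2-fold rule, which 4.88% of all genes tested passed, and Gm13341 had too few reads to be tested. Adding the reads of all copies to their genes raised the mitochondrial share to 25.6% in Cry2flox and 26.5% in Cry2scko. It moved the log2 ratio of mt-Nd3 to 0.18 and that of mt-Nd4l to -0.03, and no gene changed direction.

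Nuclear genes that copy, transcribe, process and translate the mitochondrial genome were read from 6 lists. In all, 110 genes were measured, of which 2 were higher, 1 was lower and 107 were neither under the 2-fold rule. Among all genes tested 3.37% were higher and 1.51% lower, so these counts lie near the shares over all genes. The listed genes' median log2 ratio was 0.02, beside -0.003 for all genes tested.

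Of 16 measured genes of mitochondrial DNA replication and packaging, 1 was lower and 15 neither, with a median log2 ratio of -0.003. The packaging and transcription factor Tfam had 712 reads in Cry2flox and 646 in Cry2scko (0.04, -0.11 to 0.20), and the polymerase Polg had 589 and 524 (0.01, -0.16 to 0.19). The lower gene was Lig3, a DNA ligase of both nucleus and mitochondria, with 661 and 290 reads at -1.004 (-1.21 to -0.80). It sits at the 2-fold threshold and was not called with total-count scaling, and it shares 1826 exon bases with Rffl on the opposite strand (184 and 213 reads).

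Of 11 measured genes of mitochondrial transcription, 1 was higher and 10 neither, with a median of 0.12. The RNA polymerase of mitochondria, Polrmt, had 311 and 297 reads (0.12, -0.12 to 0.35). Its partners were Tfb2m at -0.23 (-0.42 to -0.04) and the elongation factor Tefm at -0.32 (-0.67 to 0.03). Ratios above equality were found for 7 of the 11 genes, among them Tfb1m, which methylates the small rRNA, at 0.44 (0.03 to 0.85) and Mterf3 at 0.25 (-0.01 to 0.52). Mrpl12, a ribosomal protein that also binds the polymerase, was at 0.23 (0.13 to 0.33). The higher gene was Mterf1b, one of a pair of mouse termination factor genes, on 10 and 25 reads at 1.46 (0.40 to 2.73). Its paralog Mterf1a had 29 and 19 reads, and the counting can split reads between such copies.

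Among 25 measured genes of RNA processing and decay 0 were called, and the median was -0.09. Lrpprc, which stabilises mitochondrial mRNAs, had 1748 and 1398 reads (-0.14, -0.24 to -0.04), and Grsf1, a protein of mitochondrial RNA granules, 2148 and 1961 (0.05, -0.04 to 0.14). Fastkd5, which acts at mRNA ends that no tRNA borders, was the lowest of this list at -0.55 (-0.90 to -0.20), and Tbrg4, of the same protein family, was the highest at 0.40 (0.22 to 0.59). Among 22 genes of RNA modification 0 were called, with a median of 0.13 and with Nsun2 at -0.26 and Mto1 at 0.21.

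Of 22 genes listed under aminoacyl-tRNA synthetases, which load the mitochondrial tRNAs, 1 was higher and 21 neither, with a median of 0.08. The list also holds Qrsl1, Gatb and Gatc, which are subunits of an amidotransferase and not synthetases. Its members Kars and Gars encode the cytosolic enzymes as well. The higher gene was the prolyl-tRNA synthetase Pars2, on 11 and 49 reads at 2.29 (1.38 to 3.43). Kars (0.05) and Iars2 (0.03) had the most reads of this list. Of 15 translation factors 0 were called. Their median was 0.01, with the elongation factor Gfm1 at 0.07 (-0.03 to 0.16) and Gfm2, which acts in ribosome recycling, at -0.12 (-0.25 to 0.00).

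**Figure D4:**
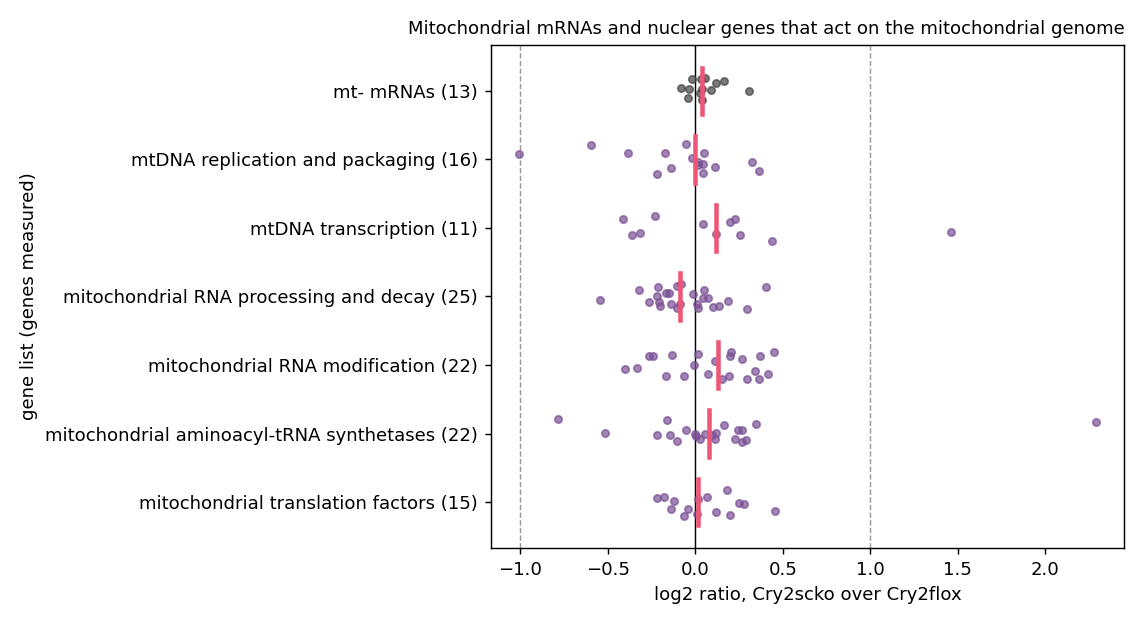
Log2 ratio of Cry2scko over Cry2flox for the 13 mitochondrial mRNAs and the measured members of 6 nuclear lists (1 point per gene, red bar the median, dashed lines the 2-fold threshold, vertical scatter without meaning). The mitochondrial mRNAs lie between -0.08 and 0.31, and Lig3, Mterf1b and Pars2 are the nuclear genes past the threshold.

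Markers of fibre and cell types were read beside these values, since they differ in mitochondrial content, and their counts stand beside 3.37% of all genes tested called higher and 1.51% called lower. General markers of skeletal muscle fibres were abundant in both libraries, with 8 of 8 measured, 0 past the rule and a summed level of 149984 CPM in Cry2flox and 144108 in Cry2scko. Slow-fibre markers had 6 of 8 higher and a summed level of 1397 and 2963 CPM, with Myh7, the slow myosin, at 1.27. Lymphocyte markers had 7 of 9 higher, summing to 61.6 and 150 CPM. Adipocyte markers had 2 of 4 measured lower (38.7 and 22.01 CPM for all 5), and fibroblast markers 1 of 5 lower (1579 and 996 CPM). Erythrocyte markers had 0 of 5 past the rule (47.2 and 57.4 CPM). Of 4 brown adipocyte markers, Ucp1 and Elovl3 had 0 reads in both libraries, which allows levels of at most 0.160 and 0.181 CPM (3 reads), and the list summed to 3.36 and 2.30 CPM. The part of these shifts in the mitochondrial values was not tested.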

How the data were processed

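RNA of gastrocnemius muscle was sequenced in 2 libraries, 1 per genotype. CASAVA, HISAT2 2.0.4, StringTie 1.3.0 and the build GRCm38 are named in the submitters' processing notes. The read counter, annotation release and strand setting are not given in the sources used here. The authors deposited raw whole-number read counts for each Ensembl gene and, in a separate file for each library, FPKM values, per the file headers. No count column was left unmapped.

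Symbols, positions and transcripts came from GENCODE M21 (GRCm38), and 34267 of 34745 identifiers had a symbol. Counts were scaled with TMM factors of 0.993 for Cry2flox and 1.01 for Cry2scko (edgeR 4.0.16, R 4.3.3) and given as CPM. A gene with 0 reads is given the limit of 3 reads. For the log2 ratio of every gene, each count was raised by 0.5 reads, and a gene was called where it had a mean CPM of 1 or more, a ratio of at least 2-fold and a 95% interval excluding equality. No test across animals was possible. The procedure was tested on simulated counts, which carried counting error only.

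Nuclear copies were sought with BLAST 2.17.0. Python 3.11.15, numpy 2.4.6, scipy 1.17.1, pandas 2.3.3 and matplotlib 3.10.9 were used. The alternatives tried were DESeq2 1.42.0 size factors, scaling by total counts, totals without mitochondrial and the 20 most abundant nuclear genes, FPKM with 0.1 added, 5 reads added, other filters, a 1.5-fold threshold, copies added and overlapping genes merged. Members and lists were chosen with earlier results of these data known. The rule for named genes takes all 13 genes, the called and the 2 most abundant members of each list, and up to 8 nuclear copies with a mean CPM of 1 or more. The other copies, Polrmt, Tfb2m, Tefm, Tfb1m, Mterf3, Mterf1a, Wars2, Tbrg4 and Fastkd5 were added after their values were seen.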

Additional observations from a re-analysis of the deposited data

How the results depend on the processing

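The 0 of 13 mitochondrial genes past the 2-fold rule stayed 0 under all 9 alternatives, a 1.5-fold threshold included. Their median log2 ratio of 0.04 became 0.06 with total-count scaling (0.0570), and with totals lacking mitochondrial and the 20 most abundant nuclear genes (0.0595). With FPKM it was also 0.0570, and mt-Nd4 alone changed sign. FPKM uses the same library totals as total-count scaling, so they are not separate checks, here or for the nuclear lists below. The range of the log2 composition ratios, 0.39, runs from mt-Nd5 (-0.11) to mt-Nd6 (0.28). Merging mt-Atp8 with mt-Atp6 and mt-Nd4l with mt-Nd4 could not change it, since neither end of the range is in a merged pair. Taking the 13 protein-coding genes as the denominator gives by construction the same set.

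The mitochondrial share of reads, 23.8% in Cry2flox and 24.6% in Cry2scko, was 31.2% and 32.0% without the 20 most abundant nuclear genes, 52.3% and 52.8% of summed FPKM, and 25.6% and 26.5% with nuclear copies added. Its log2 ratio of 0.048 became 0.034, 0.014 and 0.051. By FPKM, which weights short genes more, the shares in Cry2flox and Cry2scko were 30.4% and 30.4% for complex I, 8.40% and 8.44% for complex III, 34.4% and 34.9% for complex IV, and 26.7% and 26.3% for complex V. By reads, complex V held 11.8% and 11.5%.

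Over the nuclear lists the 1 lower gene, Lig3, was not called with total-count scaling, with totals lacking the abundant genes or with FPKM (0 lower each), and a 1.5-fold threshold gave 2 lower, Wars2 being the other. No paired analysis was possible because each genotype has 1 library without a replicate number, and no library could be left out. Depth limits Mterf1b, Mterf1a and Pars2, each under 50 reads per library, and not the mitochondrial genes.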
